A study of Mus musculus with 6 samples.

Results

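The genes described here are 7 messenger RNAs known as targets of the let-7 microRNAs, namely Fign, Plagl2, Nras, Lin28a, E2f5, Nr6a1 and Acvr1c, measured in cells with and without an siRNA against Dicer. They were chosen by name, with earlier results of these data known. Each was read by 1 transcript cluster (a set of probes that reports 1 transcript), among 7660 named genes in the deposited values. RNA came from Melan-a cells, an immortal line of pigmented mouse melanocytes of the C57BL/6 strain. The cells were transfected with siDicer (3 arrays) or with the control siRNA siScr (3 arrays), and cells of both groups grew in serum-containing medium plus 200 nM of the phorbol ester TPA and received 50 pmol of siRNA per well. Replicates 1, 2 and 3 of both groups were cells of passage 47, 54 and 56. The sample titles place the harvest 48 h after transfection, whereas the treatment protocol places lysis 24 h after a medium change at 6 h. All samples are 1 cell line, and the design text calls the 3 samples of a group biological replicates.

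MicroRNAs of the let-7 family guide Argonaute proteins to messenger RNAs that carry a match to the microRNA's seed, usually in the 3' untranslated region, which lowers translation and the level of the messenger. Dicer cuts the hairpin precursors of let-7 into the mature form, so loss of let-7 predicts higher levels of its targets. The family is known for holding down genes of growth and of the embryonic state, and its maturation is blocked by the RNA-binding protein Lin28a, itself a target. Levels of mature let-7 and of Dicer1 were not analysed here, so no check of the knockdown is given.

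The sequences that define these targets are those of let-7 itself. Mature forms are shown 5' to 3' from RefSeq (GRCm38.p6), with the seed (bases 2 to 8) in capitals, because the shared seed is how the family reads its targets. Let-7k and miR-1961, which also carry the shared seed, are not shown. Let-7j, which has another seed, is shown last. The sites in the 7 target transcripts were not analysed here.
let-7a-5p: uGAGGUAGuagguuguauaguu
let-7b-5p: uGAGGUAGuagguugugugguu
let-7c-5p: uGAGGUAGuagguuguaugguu
let-7d-5p: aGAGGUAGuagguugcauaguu
let-7e-5p: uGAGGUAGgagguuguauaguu
let-7f-5p: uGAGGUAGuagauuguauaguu
let-7g-5p: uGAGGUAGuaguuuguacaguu
let-7i-5p: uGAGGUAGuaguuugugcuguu
miR-98-5p: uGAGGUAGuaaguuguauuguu
let-7j: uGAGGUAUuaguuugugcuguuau
The seed GAGGUAG was carried by 11 of 1679 mature mouse microRNAs in that table (0.655%), and a messenger RNA pairs with it through CUACCUC. Of the 13 microRNA genes that carry it, 0 lie on chromosomes 1 to 4, the chromosomes whose transcript clusters were analysed, so no transcript of these genes has a value here. Let-7a-5p, for example, is encoded at chr13:48538239-48538260 on the minus strand. The let-7 gene that did have a value, let-7j (chr3:140028281-140028304, plus strand), carries another seed, GAGGUAU. Its cluster (TC0300001428.mm.1) gave 2.19, 2.14 and 2.15 in siDicer, against 2.02, 2.01 and 2.00 in siScr, all on the log2 scale. The groups did not overlap, but these are among the dimmest signals on the arrays, under the level needed for a test, and the probes can read its precursor as well.

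The target genes went in both directions. Of the 6 that were bright enough to test, 3 were higher in siDicer (Fign, Plagl2 and Nras), as loss of let-7 predicts, and 3 were lower (Lin28a, E2f5 and Nr6a1), and the dim Acvr1c was lower as well. Over all tested genes 45.5% were higher. A first limma fit compared the groups over all arrays, and a second one, called blocked here, also took out the differences between passages. Fign rose by 0.36 on the log2 scale in the blocked fit, the 1 member that passed the threshold of 0.05 after adjustment over all tested genes. Over all arrays 0 members passed (limma), and 2, Fign and Plagl2, had an unadjusted p under 0.05, both of them higher. Of all tested genes 8.52% had such a p, 4.61% higher and 3.92% lower. The median difference of the 6 genes was log2 0.027, against -0.0092 over all 5362 tested genes. Leaving out siScr replicate 3 made that of the 6 genes 0.018, and median centring made it 0.053 and put the median of all tested genes at 0.016. In the blocked fit 1.73% of all tested genes passed, 1.14% higher and 0.597% lower, and over all arrays 0.0186% passed, which is 1 gene, lower in siDicer.

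**Figure D1:**
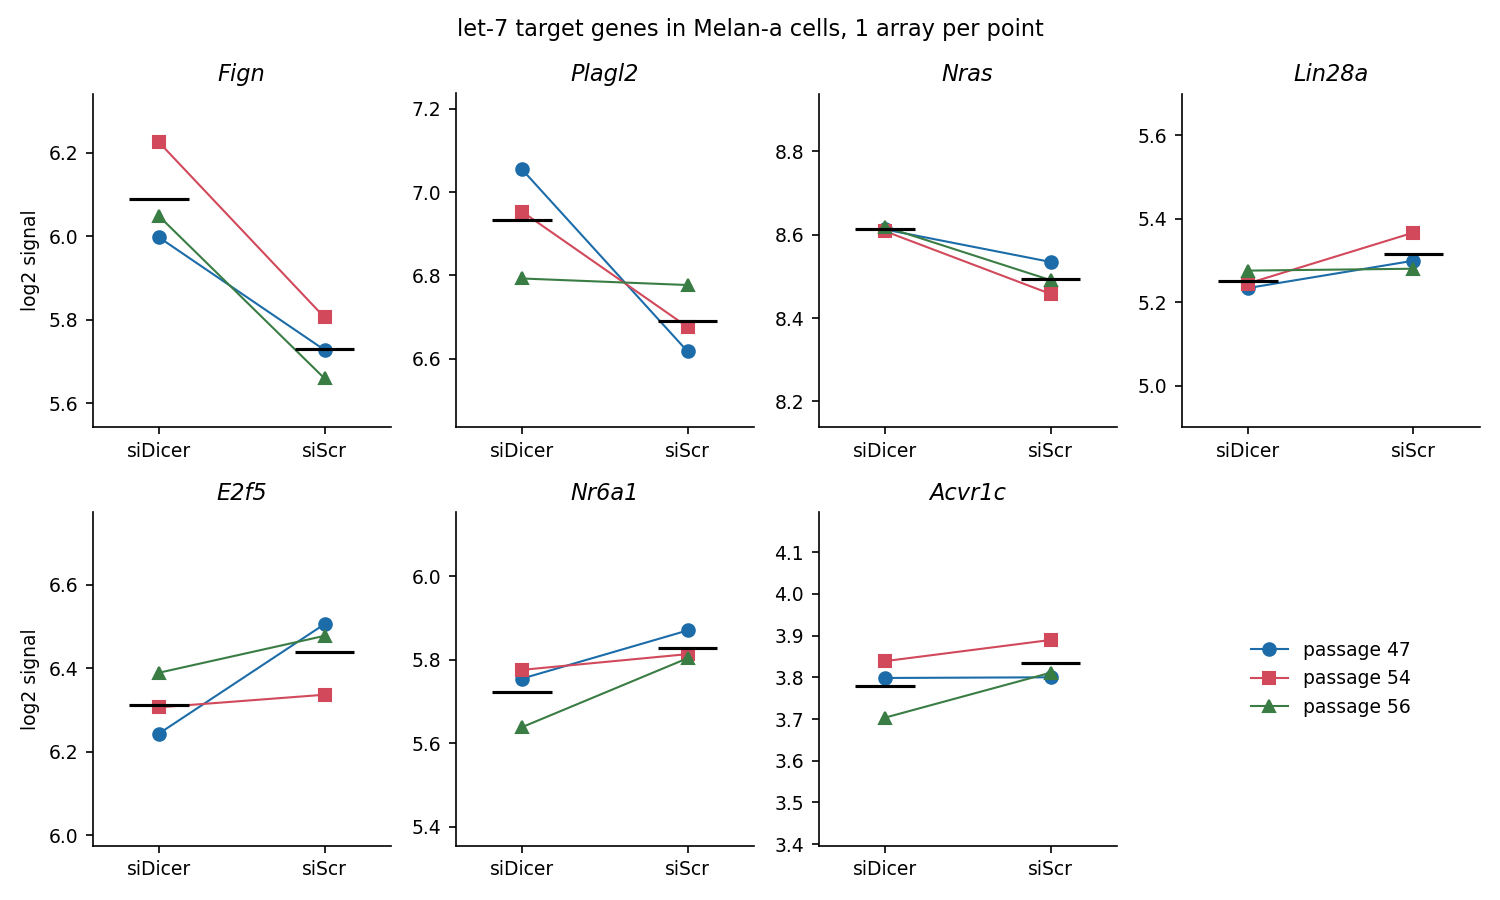
Log2 signal of each let-7 target gene, with 1 point per array, siDicer left and siScr right. Colours and lines join the 2 arrays of a passage, horizontal bars are group means, and every panel spans 0.8 on the log2 axis (n = 3 arrays per group). The lines of Fign run down from siDicer to siScr at all 3 passages, those of Plagl2 run down at passages 47 and 54 and are nearly level at passage 56, and those of E2f5 and Nr6a1 run up.

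Fign encodes fidgetin, an ATPase that severs microtubules, and its cluster TC0200003643.mm.1 lies on chromosome 2. Its log2 signal was 6.00, 6.23 and 6.05 in siDicer at passages 47, 54 and 56, against 5.73, 5.81 and 5.66 in siScr. Every siDicer array lay above every siScr array. The means were 6.09 ± 0.12 in siDicer and 5.73 ± 0.073 in siScr (SD, n = 3 each), a 1.28-fold difference, and the passages gave 0.27, 0.42 and 0.39. The difference of log2 0.36 had a standard error of 0.079 over all arrays (limma, adjusted p = 0.231) and of 0.061 in the blocked fit (limma, adjusted p = 0.0378). In both groups passage 54 had the highest Fign signal, and this spread between passages is what the block takes out. The blocked call was lost when the arrays of passage 47 (limma, adjusted p = 0.164), passage 54 (0.198) or passage 56 (0.0595) were dropped, and also when dim genes were tested too (0.0623).

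Among 3533 other tested protein-coding genes, the 2 whose values were most like those of Fign over the 6 arrays were F3, which encodes tissue factor, the starter of coagulation (Pearson's r = 0.996), and Fndc3b, which encodes a membrane protein with fibronectin type III domains (r = 0.987). These points share the group and the passage, and 41 genes had an r over 0.9, so the likeness is a description. F3 differed by log2 0.87 and Fndc3b by 0.46, both larger than the difference of Fign.

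Of the 3 transcription factors, Plagl2 was higher in siDicer and E2f5 and Nr6a1 were lower, and none passed. Plagl2 encodes a zinc finger activator of the PLAG family, an oncogene product, with cluster TC0200004926.mm.1 on chromosome 2. Its log2 signal was 7.05, 6.95 and 6.79 in siDicer, against 6.62, 6.68 and 6.78 in siScr at the same passages. The groups did not overlap, but the lowest siDicer array (6.79) and the highest siScr array (6.78) were nearly equal, and both were of passage 56. The passages thus gave differences of 0.44, 0.28 and 0.016, and without passage 47 the blocked difference was 0.15. The means were 6.93 ± 0.13 in siDicer and 6.69 ± 0.080 in siScr (SD, n = 3 each), with a difference of log2 0.24 ± 0.085 (SE) and a 95% interval of 0.047 to 0.44. It passed neither over all arrays (limma, adjusted p = 0.454) nor in the blocked fit (limma, adjusted p = 0.275).

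E2f5, a member of the E2F family that mostly represses cell cycle genes, had 6.24, 6.31 and 6.39 in siDicer, against 6.51, 6.34 and 6.48 in siScr (cluster TC0300000091.mm.1, chromosome 3). The siDicer array of passage 56 lay above the siScr array of passage 54, so the groups overlapped. The differences were -0.26, -0.030 and -0.088 at passages 47, 54 and 56, opposite to the direction that loss of let-7 predicts, and without passage 47 the blocked difference was -0.059. The mean difference was -0.13 ± 0.073 (SE) with a 95% interval of -0.30 to 0.041 (limma, adjusted p = 0.7), and at its upper end the interval allows a 1.03-fold rise.

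Nr6a1 encodes GCNF, an orphan nuclear receptor that silences pluripotency genes as embryonic cells differentiate (cluster TC0200003424.mm.1, chromosome 2). Its log2 signal was 5.75, 5.78 and 5.64 in siDicer, against 5.87, 5.81 and 5.80 in siScr. All siDicer arrays lay below all siScr arrays. The passages gave -0.12, -0.038 and -0.17, and the mean difference of -0.11 ± 0.063 (SE) did not pass (limma, adjusted p = 0.714). Without siDicer replicate 3 it was -0.064. Its 95% interval over all arrays ran from -0.25 to 0.039, with an upper end at a 1.03-fold rise. Whether the signal of Nr6a1 is transcript or array background was not tested, nor was this tested for any other member.

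Nras encodes a small GTPase that carries growth factor signals into the MAP kinase cascade and is a frequent oncogene of melanoma (cluster TC0300001041.mm.1, chromosome 3). Its log2 signal was 8.61, 8.61 and 8.62 in siDicer, against 8.53, 8.46 and 8.49 in siScr. The siDicer arrays lay within 0.011 of each other and above all siScr arrays, which spanned 0.077. The passages gave differences of 0.078, 0.15 and 0.13. The means were 8.61 ± 0.0053 in siDicer and 8.49 ± 0.038 in siScr (SD, n = 3 each). The difference of 0.12 ± 0.061 (SE of the moderated fit, which draws on the spread of all genes), or 1.09-fold, passed neither over all arrays (limma, adjusted p = 0.663) nor in the blocked fit (limma, adjusted p = 0.462), and the 95% interval over all arrays was -0.022 to 0.26.

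Lin28a, which blocks the maturation of let-7 precursors and forms a feedback loop with let-7, had 5.23, 5.24 and 5.28 in siDicer, against 5.30, 5.37 and 5.28 in siScr (cluster TC0400003723.mm.1, chromosome 4). The groups did not overlap, but the highest siDicer and the lowest siScr array, both of passage 56, were nearly equal, with a difference of -0.0045. At passages 47 and 54 it was -0.066 and -0.12. The mean difference of -0.064 ± 0.055 (SE) did not pass (limma, adjusted p = 0.823). Its 95% interval over all arrays, not adjusted for the number of genes, ran from -0.19 to 0.063. The upper end is a 1.04-fold rise, and in the blocked fit it is 1.05-fold. The difference shrank to -0.038 when siScr replicate 2 was left out and to -0.039 when arrays were centred on their medians. Whether this signal is Lin28a transcript or array background was not tested, since the files hold no measure of signal over background.

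Acvr1c encodes ALK7, a type I receptor for activins and Nodal (cluster TC0200003576.mm.1, chromosome 2). Its log2 signal was 3.80, 3.84 and 3.70 in siDicer, against 3.80, 3.89 and 3.81 in siScr, and the groups overlapped. Its mean lay under the 30th percentile of all genes (log2 4.15), so it was left out of the tested genes. When all 7660 genes were fitted, the difference was -0.053 with a 95% interval of -0.19 to 0.080 (limma, adjusted p = 0.914).

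**Figure D2:**
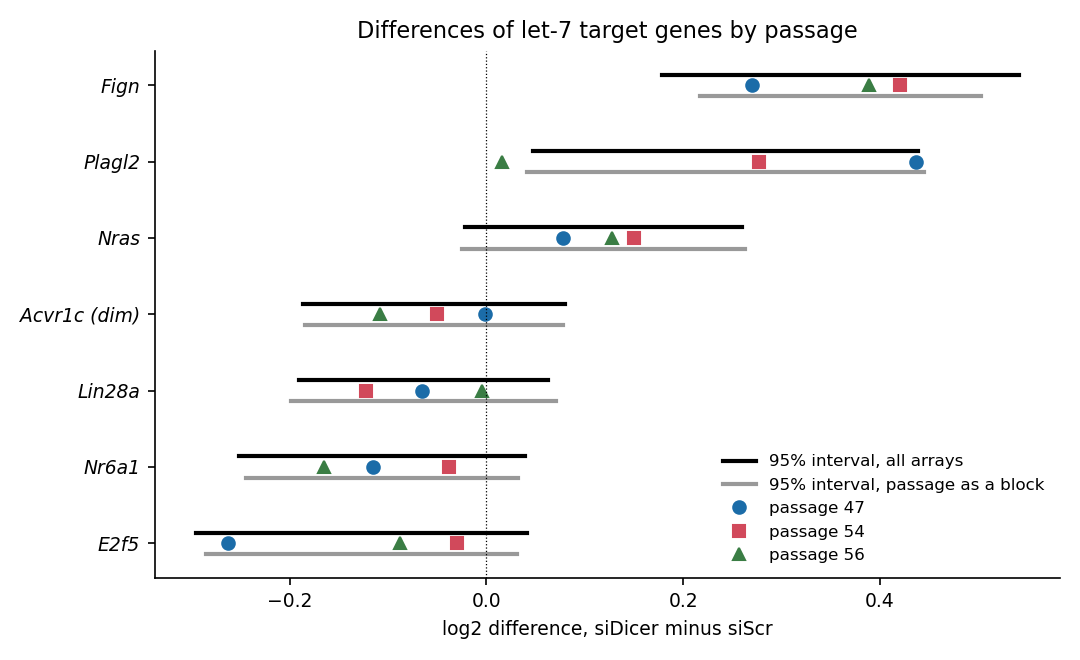
Log2 difference (siDicer minus siScr) of each let-7 target gene, with 1 point per passage. Lines are 95% intervals of the limma fits over all arrays (black) and of the blocked fits (grey), which for the dim Acvr1c come from the fits without a filter. Both intervals of Fign and of Plagl2 lie above 0 before adjustment over all genes, and those of the other 5 genes include 0.

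Each of the 6 tested members had 1 direction at all 3 passages, 3 of them higher and 3 lower, a pattern found in 36.1% of all tested genes (16.1% higher and 20.0% lower). In 5 members the groups did not overlap, 3 higher and 2 lower, against 14.5% of tested genes (6.68% higher and 7.81% lower). Because the members were chosen with earlier results of these data known, these shares are a description and no test. A larger difference in either direction was found in 2.29% of tested genes for Fign, in 5.78% for Plagl2, in 24.8% for Nras, in 22.3% for E2f5, in 29.5% for Nr6a1 and in 50.1% for Lin28a. The median over the 6 genes was 0.0061, 0.060 and 0.0056 at passages 47, 54 and 56, where all tested genes had -0.0048, -0.0021 and -0.019.

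**Figure D3:**
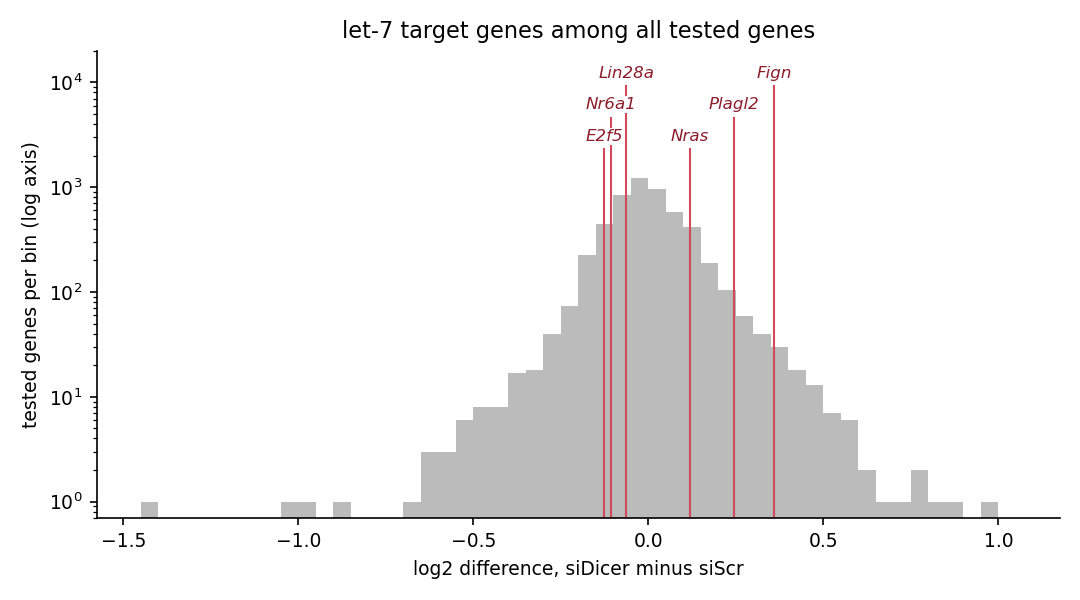
Histogram of the log2 differences (siDicer minus siScr) of the 5362 tested genes in bins of 0.05, on a log axis of genes per bin. Red lines mark the 6 tested let-7 target genes, with Fign at 0.36 and Plagl2 at 0.24 in the upper tail and Lin28a, Nr6a1 and E2f5 between -0.13 and -0.064.

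Other genes that are listed as let-7 targets in general knowledge of the family also went in both directions. Of 54 such genes 18 had a value, and all 18 were tested. This list and that of the relatives below were drawn from all chromosomes, whereas the clusters analysed lie on chromosomes 1 to 4. In siDicer 10 were higher and 8 lower, with a median difference of 0.0028. In the blocked fit 1 passed in each direction, and over all arrays 0 passed (limma, 1 higher and 2 lower at an unadjusted p under 0.05), where of all tested genes 1.73% passed in the blocked fit and 8.52% had such an unadjusted p. Thbs1, which encodes the matrix glycoprotein thrombospondin 1, rose by 0.77 ± 0.071 (SE) in the blocked fit (limma, adjusted p = 0.00658), with 0.67, 0.76 and 0.89 at the 3 passages. Its signal was 9.11, 9.90 and 9.14 in siDicer, against 8.44, 9.15 and 8.25 in siScr, so the groups overlapped through the high values of passage 54 in both groups, and over all arrays it did not pass (limma, adjusted p = 0.459). Without the block, the difference of Thbs1 was 0.51 when siDicer replicate 2 was left out and 1.04 when siScr replicate 2 was. Each of these fits keeps the high array of passage 54 in 1 group only. With both arrays of passage 54 dropped, the blocked difference was 0.78 (limma, adjusted p = 0.0195). The blocked call of Thbs1 was lost when passage 47 was dropped (limma, adjusted p = 0.0545).

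Tgfbr1, the type I receptor for TGF-beta, moved the other way. Its log2 signal was 6.76, 6.98 and 7.01 in siDicer, against 7.39, 7.40 and 7.33 in siScr. Every siDicer array was below every siScr array. In the blocked fit it fell by 0.46 (SE 0.074, limma, adjusted p = 0.0346) and did not pass over all arrays (limma, adjusted p = 0.128). That call was lost when passage 47 (limma, adjusted p = 0.198) or passage 54 (0.111) was dropped and when dim genes were tested too (0.0599).

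The other listed targets named by smallest p did not pass in either fit. Syt11, a synaptotagmin of vesicle traffic, differed by -0.26 and Lrig2, a membrane protein of receptor signalling, by -0.16. Epha4, an ephrin receptor, differed by 0.17 and Gdf6, a BMP family ligand, by 0.13. With 1 array left out, Lrig2 ran from -0.25 (without siScr replicate 2) to -0.057 (without siScr replicate 1) and Epha4 from 0.046 (without siDicer replicate 2) to 0.27 (without siDicer replicate 3). Epha4 was 0.090 without siScr replicate 3, and Gdf6 was 0.084 without siDicer replicate 1. The lowest blocked adjusted p among them was 0.138 (limma), that of Syt11.

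**Figure D4:**
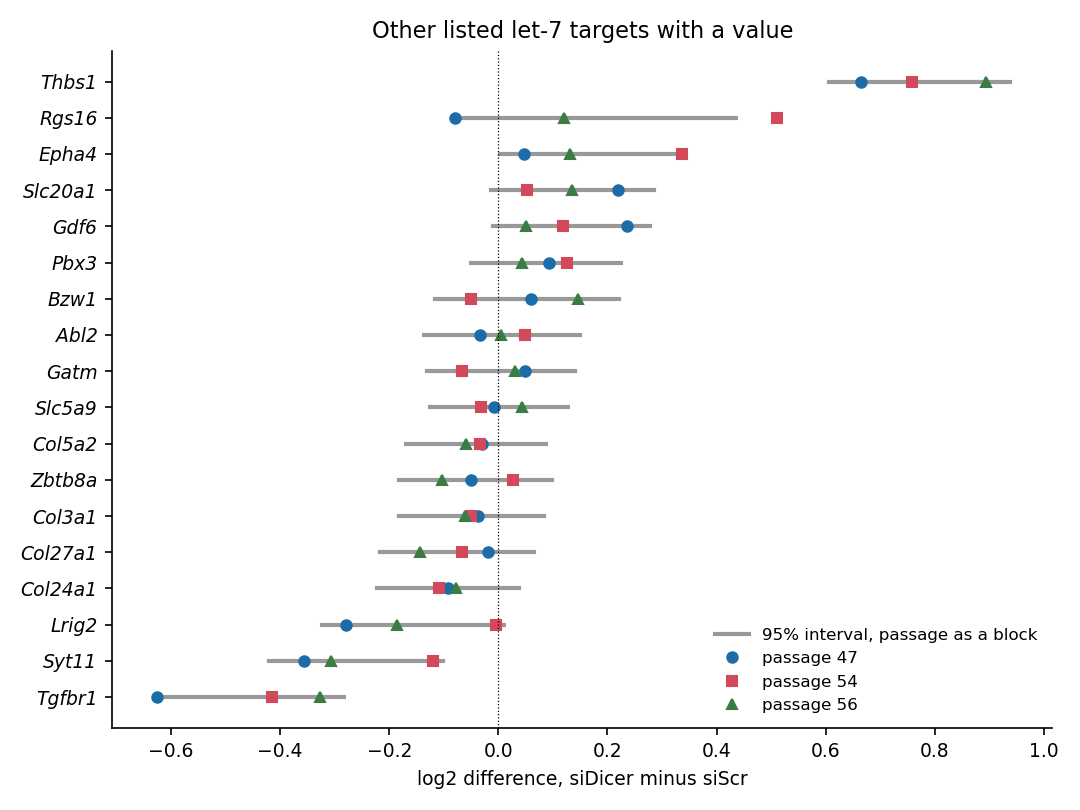
Log2 difference (siDicer minus siScr) of the 18 other listed let-7 targets with a value, with 1 point per passage and the 95% interval of the blocked limma fit. Thbs1 stands at 0.77 and Tgfbr1 at -0.46, and most of the others lie close to 0.

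Family relatives of the 7 genes were read by clusters of their own. Of 36 relatives 13 had a value and 10 were tested, 5 higher and 5 lower in siDicer with a median of -0.045. In the blocked fit 1 relative passed, Tgfbr1, where 1.73% of all tested genes did. Tgfbr1 is also on the list of other targets, so this is the same call as above. In the E2F family, E2f1 and E2f2, which activate S-phase genes, differed by 0.33 and 0.24 where E2f5 differed by -0.13, and neither passed (blocked limma fit, adjusted p = 0.0859 and 0.339). E2f1 had 8.07, 7.98 and 7.95 in siDicer, against 7.64, 7.59 and 7.78 in siScr, with no overlap. The groups of E2f2 did overlap, with differences of 0.50, 0.22 and -0.016 at the 3 passages, and its mean difference was 0.13 without siScr replicate 1 and 0.37 without siScr replicate 3.

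Among relatives of Nras, the GTPase genes Rap1a and Rap2b differed by -0.21 and -0.092 and Rit1 by 0.043, and the sign of Rit1 turned when siScr replicate 2 was left out. Rap1a was -0.13 without siScr replicate 1, and Rap2b lay between -0.20 and -0.030 with 1 array left out, the extremes being those without replicate 2 of siScr and of siDicer. Among receptors related to Acvr1c, the type I receptor Acvr1 differed by 0.15, the type II receptors Acvr2a and Bmpr2 by -0.12 and -0.16, and the dim type I receptor Bmpr1b by -0.035. Without siDicer replicate 1, Acvr2a was -0.051 and Bmpr2 -0.10. Nr5a1, a nuclear receptor of steroid-producing tissues, differed by 0.0024, and its sign changed with the arrays used. The dim Nr5a2 differed by 0.039 and Plag1, the dim founding member of the PLAG family, by 0.050.

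Of 32 listed genes that make, modify or act with let-7, 9 had a value, the member Lin28a among them, and all 9 were tested. The rest had no value in the clusters analysed, which lie on chromosomes 1 to 4. Of the 9 tested genes 7 were lower in siDicer, with a median of -0.065. Of all tested genes 2922 of 5362 were lower. In the blocked fit 1 of the 9 passed, where 1.73% of all tested genes did. Xrn2, a nuclear exonuclease that can degrade microRNAs in worms, fell by 0.51 in the blocked fit (SE 0.073, limma, adjusted p = 0.0288) and did not pass over all arrays (limma, adjusted p = 0.114). The call of Xrn2 was lost when passage 47 (limma, adjusted p = 0.195) or passage 54 (0.113) was dropped and when dim genes were tested too (0.0512). It was kept without passage 56 (limma, adjusted p = 0.00839). With array weights and no block, Xrn2 passed narrowly (limma, adjusted p = 0.0488). Ago3, an Argonaute, had 7.10, 7.24 and 7.13 in siDicer, against 7.47, 7.44 and 7.46 in siScr. The groups of Ago3 did not overlap, and its difference of -0.30 did not pass (blocked limma fit, adjusted p = 0.0828). Tut4, the uridylyltransferase that Lin28a recruits to let-7 precursors, differed by -0.13, Dis3l2, the nuclease that degrades the uridylated precursors, by -0.065, and Prkra, a Dicer partner, by -0.073. At passage 56 Tut4 was higher in siDicer, by 0.042. Without siDicer replicate 1, Tut4 was -0.057 and Prkra -0.027, and without siDicer replicate 3 Tut4 was -0.22. Dis3l2 lay between -0.12 and -0.023 with 1 array left out, the extremes being those without replicate 1 of siDicer and of siScr.

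Array medians over all clusters ran from log2 4.63 to 4.68, and pairwise correlations between arrays from 0.993 to 0.997. Over all arrays 1 of 5362 tested genes passed, Tmem131, and in the blocked fit 93 passed, 61 higher and 32 lower in siDicer. The melanocyte markers Tyrp1 and Slc24a5 had means of 12.81 and 10.59 in siDicer, against 12.86 and 10.85 in siScr. Means of 6 keratinocyte markers ran from 3.02 to 6.89 in siDicer and from 2.98 to 6.92 in siScr, those of 4 fibroblast markers from 3.89 to 6.29 in siDicer and from 3.93 to 6.34 in siScr, and those of 5 leukocyte markers from 2.84 to 5.12 in siDicer and from 2.84 to 5.13 in siScr. In RNA of whole cultures, fewer cells with a transcript and less of it per cell cannot be told apart.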

How the data were processed

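RNA was hybridised to Affymetrix Clariom D mouse arrays, per the labels' protocols. The deposited values are signals per transcript cluster, read here as log2 and made with Affymetrix Expression Console per the submitters' processing notes. The sources used here name neither its version, nor the normalisation method, nor the genome build. The values ran from 1.70 to 13.70, from which the log2 scale was inferred, and their centring is unknown beyond the array medians. Of 16383 clusters the platform annotation paired 7716 with 1 gene (186 of them through aliases), 269 with several and 8398 with none, and symbols were updated through RefSeq. The cluster with the highest mean stood for each gene. Genes under the 30th percentile of mean signal were called dim and not tested, which kept 5362 genes.

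The groups were tested with limma (version 3.58.1, R 4.3.3, eBayes with a trend), two-sided, with Benjamini-Hochberg adjustment over all tested genes. SDs are over 3 arrays, and SEs and 95% intervals are of the moderated fit. The p-values set each difference against the spread between these samples, moderated over all tested genes. In the blocked fit that spread excludes the differences between passages. The labels give each replicate number 1 passage shared by both groups. Deviations from the group means correlated at 0.42, 0.62 and 0.070 between the 2 arrays of passages 47, 54 and 56, so a fit with passage as a block is given beside the main one. An exact permutation test of 3 against 3 arrays cannot go below p = 0.1 and was not used. The members, the lists and the naming rule (all members and measured relatives, and of the other lists the genes that passed or up to 6 by smallest blocked p) were chosen with earlier results of these data known. The fits were tested on simulated data. The number of arrays limits the precision.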

Additional observations from a re-analysis of the deposited data

How the results depend on the processing

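The count of passing genes over all arrays was 1, and it was 0 to 2 when 1 array was left out (2 without siScr replicate 2 and 0 without siDicer replicate 3), and array weights gave 14. The replicate block of passage gave 93 genes, and 3, 19 and 153 without passages 47, 54 and 56. Chosen after seeing the data, the block was combined with quantile normalisation (90 genes), median centring (104), array weights (141) and no filter on dim genes (22). Of the let-7 targets 0 passed over all arrays and 1, Fign, passed with the replicate block, also after quantile normalisation (1), median centring (1) and array weights (1). The blocked fits without a passage hold 2 fewer arrays, and the cause of the calls lost in them was not tested. The other members passed under no setting. The median of the tested members, Fign included, was 0.12 with genes under the 50th percentile left out, a step that removes Lin28a, and 3 members were higher under every setting run. None of the 6 tested members changed sign. Among relatives Rit1 ran from -0.078 to 0.11 with 1 array left out and was -0.035 with array weights and -0.074 with the block and without passage 54. Nr5a1 ran from -0.035 to 0.048 with 1 array left out and was -0.0093 with the block and without passage 47 and -0.0016 with the block and array weights. Scaling moved the median of all tested genes from -0.0092 to -0.0065 (quantile) and 0.016 (median centring). Signal over background could not be measured from these files.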
